A study of Mus musculus with 6 samples.

Results

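Pancreatic islets from mice lacking the microRNA miR-7a2 in beta cells (KO) were set against islets from wild-type mice (WT), with 1 array of each genotype. These are 2 of the 6 arrays of the series; the other 4 hold RNA of MIN6, an insulin-secreting cell line derived from mouse beta cells. Both islet samples came from the C57BL/6 background, and the deletion was made with the Lox/Cre system. The Cre driver, the age and sex of the mice, and how many animals went into each sample are not given in the sources used here. MIN6 cultures were infected for 48 hours, at 250 infectious units per cell, with adenoviral vectors expressing GFP as the control (AdGFP, 1 array), miR-7a (AdmiR7a, 2 arrays from a duplicate infection) or miR-7b (AdmiR7b, 1 array). Every value below is a log2 probe set intensity, so a difference of 1 is a 2-fold difference and a difference of 0.58 a 1.49-fold one. Each gene was read from the probe set with the highest mean over both islet arrays, and a gene was compared when that mean was at least 4. This left 10568 of the 18194 genes with a named probe set. With 1 array per genotype there is no replicate check, so genes are described by the size of the KO minus WT difference, with no test, and by the other probe sets of the same gene.

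MicroRNAs are short RNAs that guide Argonaute proteins to partly matching sites in messenger RNAs, mostly through the seed at bases 2 to 8, and lower the level or the translation of the message. miR-7 is abundant in neuroendocrine cells, among them the hormone cells of the islet. Mice have several miR-7 genes, so the loss of Mir7-2 need not remove every copy of the mature microRNA, and mature miR-7 was not measured on these arrays. The sequences are shown because the deleted gene, the other miR-7 genes and both viral constructs share a seed. They are taken from RefSeq (GRCm38.p6), written 5′ to 3′, with the seed of each mature form in capitals. In the hairpin the capitals mark miR-7a-5p.
mmu-miR-7a-5p (Mir7-2, chr7:78888295-78888317, plus strand): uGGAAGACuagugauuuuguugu
mmu-miR-7b-5p (Mir7b, chr17:56243017-56243040, plus strand): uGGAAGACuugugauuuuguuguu
Mir7-2 hairpin (chr7:78888277-78888373, plus strand): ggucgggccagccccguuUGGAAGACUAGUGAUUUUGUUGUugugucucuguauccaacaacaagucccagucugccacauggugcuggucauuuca
The same mature miR-7a-5p is also listed for Mir7-1 (chr13:58392841-58392863, minus strand). Over their shared length miR-7a-5p and miR-7b-5p differed by A10U, counted from the 5′ end with the miR-7a base first, which lies outside the seed.

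In KO islets 144 genes (1.36% of those compared) were at least 1 higher than in WT islets and 136 (1.29%) at least 1 lower. At the smaller size of 0.58, 434 genes (4.11%) were higher and 499 (4.72%) lower, together 933 (8.83%). The median difference was -0.03 and its SD across genes 0.388, and 65.6% of genes lay within 0.25 of 0. For scale, the duplicate AdmiR7a arrays in MIN6 differed by at least 1 for 20 of 10363 genes (0.193%) and by at least 0.58 for 180 (1.74%), with an SD of 0.195; these were infections of a cell line and do not measure the spread between animals. The size of the islet differences depended on signal. Among the 1381 genes with a mean between 4 and 6, 10.6% were past 1, against 1.24% of 3379 genes between 8 and 10 and 0 of 1105 genes at 12 or more. WT islets were below 4 for 24 of the 144 higher genes, and KO islets for 36 of the 136 lower ones, so for these only a bound on the fold is meaningful. Only 19 of the higher genes and 7 of the lower ones reached 10 on either islet array.

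**Figure D1:**
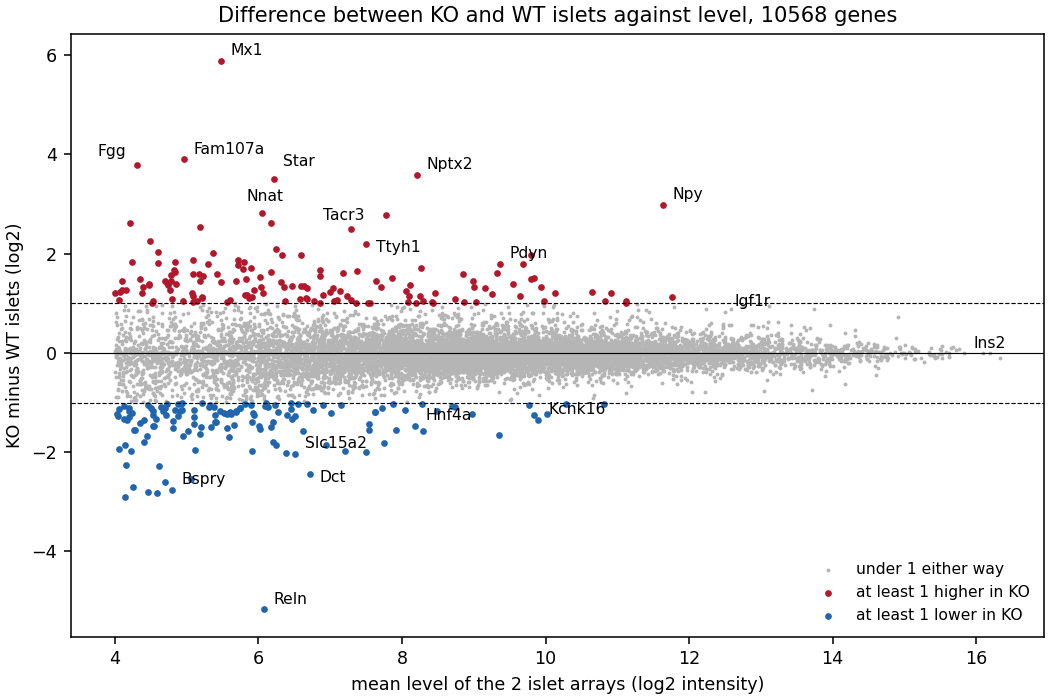
KO minus WT difference (log2) of each of the 10568 genes against its mean level over the 2 islet arrays (log2 intensity); dashed lines mark 1 and -1, red and blue points the 144 higher and 136 lower genes. The spread narrows with level: Npy lies near 11.6 with a difference of 2.98, while most other genes past 1 lie below 8.

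On the KO array 46.4% of probe sets were above 4, and on the WT array 46.2%. The hybridisation controls differed by -0.02. The poly-A RNA spikes, added before labelling, were lower by 1.12 on the KO array over 27 probe sets (KO minus WT -1.12), and 18S ribosomal RNA was 0.40 higher over 3. The 3′ minus 5′ signal was 2.65 in KO and 2.77 in WT for the actin controls and 0.83 and 0.68 for Gapdh. The part of these values in the gene differences was not tested. Xist read 13.51 in KO and 13.46 in WT with the probe set used, and 0.99 to 1.45 higher in KO with others, while the Y-linked gene Kdm5d was at the floor of the scale (2.17) on both.

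Several genes high in KO islets encode secreted peptides and their receptors. Npy, the gene of neuropeptide Y, a peptide that lowers insulin release, read 13.13 in KO and 10.15 in WT. Pdyn, which encodes the opioid precursor prodynorphin, read 10.26 and 8.46, a difference of 1.80. Vip, for vasoactive intestinal peptide, read 8.82 and 7.67. Tac1, for substance P, was 0.97 higher. Of 13 hormone and neuropeptide genes compared, these 4 were at least 0.58 higher and 0 as much lower. For all genes the shares were 4.11% and 4.72%. Another 18 hormone and neuropeptide genes were below 4. The main islet hormones were not among the 4: Ins2 read 15.82 and 15.83, Iapp 16.10 in both, and Gcg, Sst and Ppy differed by -0.09, -0.03 and 0.10. These levels are near the top of the scale, where none of the 1105 genes at 12 or more was past 1, so such small differences do not show that the hormone messages were equal.

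Among 17 G protein-coupled receptor genes 5 were at least 0.58 higher in KO and 0 lower, against 4.11% and 4.72% of all genes. The list median was 0.12. Tacr3, the neurokinin B receptor gene, read 8.53 in KO and 6.04 in WT, and its second probe set differed by 2.68. P2ry14 and P2ry1, which encode purinergic receptors, differed by 1.45 and 0.90. Glp1r, whose protein carries the incretin signal into beta cells, read 8.70 and 7.70. The light-sensing opsin family gene Opn3 was 0.80 higher. Cnr1 and Galr1, receptors for cannabinoids and galanin, differed by -0.56 and -0.52, below the smaller size.

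Of 14 potassium channel genes 4 were at least 0.58 lower in KO and 2 higher, against 4.72% and 4.11% of all genes, with a median of -0.22. Kcnk16, a background potassium channel gene of islet cells, read 9.23 in KO and 10.58 in WT. Kcnk1 differed by -0.85, with -0.96 on its second probe set, and Kcnj3, a G protein-gated channel, read 3.48 and 4.62. Kcna2 was 0.93 higher, and its other probe set read 6.54 and 3.84. The subunits of the KATP channel, through which glucose metabolism triggers insulin release, hardly differed, at -0.04 for Kcnj11 and 0.04 for Abcc8. Of 21 calcium, sodium and TRP channel genes 4 were lower and 2 higher, against the same 4.72% and 4.11%. Itpr2, which releases calcium from the endoplasmic reticulum, read 6.76 in KO and 8.32 in WT, with -1.84 on a second probe set. Another set with a mean of at least 4 read 2.96 and 5.29, a difference of -1.29 with KO set to 4. Its sets below that mean read 3.93 on both arrays, 2.54 and 3.76, and 2.17 on both. Cacna1a was 1.22 higher on the probe set used but read 3.84 and 4.58 on the other, so its direction is not settled by these arrays.

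The secretory machinery differed little in number of genes. Of 37 exocytosis genes 3 were at least 0.58 lower and 0 higher, with a median of -0.06. Among all genes 4.72% were as much lower and 8.83% past 0.58 either way, so this count does not set the list apart. The 3 were Cadps2 (6.40 in KO and 7.62 in WT), a priming factor of dense-core vesicles, and Rab3b and Syt5, each at -0.61. Among 32 actin regulators 3 were higher and 1 lower, against 4.11% and 4.72% of all genes. Wasf1, a subunit of the complex that activates actin branching, differed by 1.10. Ezr, a linker of actin to the membrane, differed by 0.80 on the set used and 0.22 on its other set. Of 26 genes that make insulin, sense glucose or build secretory granules 3 were higher, against 4.11% of all genes: Nnat, Vgf and Glp1r. Nnat encodes neuronatin, a membrane peptide of the endoplasmic reticulum, and read 7.46 in KO and 4.63 in WT. Vgf, a granule protein, read 11.65 and 10.59.

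Of 16 beta-cell transcription factor genes 3 were at least 0.58 lower and 1 higher, against 4.72% and 4.11% of all genes. The list median was 0.02. Hnf4a, a nuclear receptor of the hepatocyte nuclear factor network, read 7.45 in KO and 8.92 in WT, but its second probe set differed by only -0.49. Mlxipl, which encodes the glucose-responsive factor ChREBP, read 11.65 and 12.43, and Rfx3 9.98 and 10.60. Nkx6-1, a factor of mature beta cells, was 0.73 higher in KO. Pdx1 and Neurod1 differed by 0.28 and 0.31. Of 17 liver-type genes, many of them regulated by the hepatocyte factors, 3 were lower and 1 higher, against the same shares of all genes. The complement gene C8b (-1.97) and Hgfac (-1.08) joined Hnf4a on the lower side. The fibrinogen gamma gene Fgg stood apart at 6.19 in KO and 2.41 in WT, at least 4.57-fold higher when the WT level is set to 4, while Fgb, another fibrinogen chain, differed by 0.46 and Fga was below 4 on both arrays.

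The antiviral gene Mx1 was among the genes that differed most. It read 8.42 in KO and 2.54 in WT, near the floor, and was at least 21.4-fold higher with the WT level set to 4, a smaller bound than that of Reln. Only this probe set of the gene was above 4. Of 32 interferon-induced genes 10 were at least 0.58 higher and 2 lower, against 4.11% and 4.72% of all genes, with a median of 0.21. The chemokine gene Cxcl10 read 8.37 and 7.04, and Xaf1, Oas1a, Rtp4 and Rsad2 differed by 0.81, 0.77, 0.77 and 0.76. The other probe sets of Rsad2 ran from -0.56 to 0.83. Uba7, which encodes the enzyme that activates ISG15, went the other way, at 5.37 in KO and 7.39 in WT, with -0.79 on its other probe set. Igtp was at -0.67. Of 15 antigen presentation genes, also interferon-inducible, 0 were at least 0.58 higher and 1 lower, Tap2 at -0.86. The shares of all genes were 4.11% and 4.72%, so these counts do not set the list apart. Its median was -0.21.

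Interferon acts on many of its target genes through promoter elements with repeated GAAA. The letters GAAA, any 2 bases and GAAA again, searched on both strands of RefSeq promoters (250 bases before to 50 after each start; GRCm38.p6), were found for 3.99% of 27025 genes. They were present in 14 of the 26 measured interferon-induced genes with a promoter listed, and in 6 of the 8 of these that were at least 0.58 higher. The list was drawn from known interferon responses, so this share describes the list and says nothing of what acted in these islets. Overlapping matches are capitalised as 1 stretch. Promoters of Cxcl10, Oas1a and Eif2ak2 are shown because these members were higher and hold the letters, which are in capitals.
Cxcl10 (chr5:92348840-92349139, minus strand): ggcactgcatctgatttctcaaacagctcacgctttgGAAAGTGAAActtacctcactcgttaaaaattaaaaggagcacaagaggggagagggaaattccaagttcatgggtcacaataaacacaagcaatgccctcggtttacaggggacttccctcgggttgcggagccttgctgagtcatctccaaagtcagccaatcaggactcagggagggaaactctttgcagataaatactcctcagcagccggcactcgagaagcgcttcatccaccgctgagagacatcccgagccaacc
Oas1a (chr5:120907476-120907775, minus strand): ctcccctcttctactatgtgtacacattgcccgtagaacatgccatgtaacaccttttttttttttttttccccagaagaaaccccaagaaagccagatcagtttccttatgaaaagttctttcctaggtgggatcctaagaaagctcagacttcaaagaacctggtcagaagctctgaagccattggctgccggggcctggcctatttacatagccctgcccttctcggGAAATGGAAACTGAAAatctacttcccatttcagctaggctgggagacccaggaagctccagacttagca
Eif2ak2 (chr17:78882523-78882822, minus strand): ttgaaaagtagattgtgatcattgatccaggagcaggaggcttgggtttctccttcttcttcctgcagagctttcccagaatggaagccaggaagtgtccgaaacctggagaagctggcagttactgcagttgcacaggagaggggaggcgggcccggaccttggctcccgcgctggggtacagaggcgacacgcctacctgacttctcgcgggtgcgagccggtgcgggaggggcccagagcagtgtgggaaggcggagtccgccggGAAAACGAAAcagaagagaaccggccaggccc
Eif2ak2 encodes the RNA-activated kinase PKR and read 7.21 in KO and 6.57 in WT, with other probe sets from 0.46 to 1.45 higher.

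Inflammatory genes were mixed, with 4 of 17 at least 0.58 higher and 2 lower, against 4.11% and 4.72% of all genes. Il1b, the interleukin-1 beta gene, read 6.02 in KO and 4.14 in WT, and the adhesion gene Vcam1 7.82 and 6.75. Il6 read 4.24 and 5.81. Socs3, a feedback inhibitor of cytokine signalling, read 9.77 and 10.79 and was lower on every probe set, by -1.16 and -1.03 on the others. Of 20 p53-induced genes 3 were at least 1 higher, against 1.36% of all genes: Cdkn1a, Perp and Zmat3. Cdkn1a, which encodes the cell cycle inhibitor p21, read 10.22 in KO and 9.06 in WT. Its second probe set gave 8.05 and 3.93, a far larger difference of 4.12. The pro-apoptotic gene Pmaip1 was at -0.97, and the median of the list was 0.23.

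Of 22 genes of steroid and cholesterol handling 2 were higher and 1 lower at 0.58, against 4.11% and 4.72% of all genes. Star, whose product brings cholesterol into mitochondria for steroid synthesis, read 7.96 in KO and 4.46 in WT, with 2.03 on its other probe set. Hsd17b7, an enzyme of cholesterol synthesis, read 7.29 and 5.20 on its only probe set above 4, an _x_at set. Its other sets read at most 2.81 on either array. The steroid-making enzymes Cyp11a1 and Cyp17a1 were near the floor on both arrays, and the lipoprotein receptor gene Scarb1 was at -0.71. Fam107a, a stress-induced actin-binding protein gene, read 6.91 in KO and 3.01 in WT, at least 7.52-fold higher with WT set to 4. It is listed among the glucocorticoid-induced genes. Of the 14 compared, 2 were at least 0.58 higher and 0 as much lower, against 4.11% and 4.72% of all genes. Their median was 0.10, and Fkbp5 and Tsc22d3 differed by -0.10 and 0.10. Of 15 circadian clock genes 3 were above 0, against 44.7% of all genes, and 2 were at least 0.58 lower, against 4.72%: Dbp (12.66 and 13.43) and Bhlhe40 (-0.59). Amino acid and endoplasmic reticulum stress genes included Cth, a cysteine-making enzyme gene, at 7.02 and 5.60, and Edem1, a degradation factor of that compartment, 0.89 higher on the set used and 0.22 on the other. The remaining 32 genes of that list of 34 were within 0.58, while 8.83% of all genes were past it.

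Reln showed the strongest difference in the lower direction. It encodes reelin, a secreted matrix protein that guides neurons, and read 3.49 in KO and 8.66 in WT, at least 25.3-fold lower in KO with the KO level set to 4. Its other probe set was at the floor on both arrays. Of the reelin receptors, Lrp8 was 0.81 higher, with 0.60 on its other probe set, Vldlr differed by 0.05, and the adaptor gene Dab1 was at the floor on both arrays. Among 24 genes of the reelin pathway and neuronal adhesion 5 were at least 0.58 higher, against 4.11% of all genes. Nptx2, a secreted pentraxin of synapses, read 10.001 in KO and 6.41 in WT, and its second probe set 5.80 and 2.37; with the WT level set to 4 the second set gives a difference of at least 1.80. L1cam, a neural adhesion gene, was 1.03 higher and Cadm1 0.81. Of 19 extracellular matrix and integrin genes 4 were above 0, against 44.7% of all genes, and 3 were at least 0.58 lower, against 4.72%. These were Itgb8 (9.40 in KO and 10.64 in WT), the collagen gene Col8a1 (-1.24) and Itga3 (-0.82).

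Lower genes outside these groups included Bspry (3.41 in KO and 6.17 in WT), Prr5l (3.40 and 6.01), whose product binds mTOR complex 2, and the rhomboid-like gene Rhbdl3 (3.79 and 6.33). KO levels of all 3 were below 4. Slc15a2, a peptide transporter gene, read 5.50 and 7.53, Nr1h4, the bile acid receptor gene, 5.32 and 7.17, and Serpina7, which encodes thyroxine-binding globulin, 6.02 and 7.88. Higher genes outside the groups included Calml4, a calmodulin-like gene (7.49 and 4.86), Gipc2 (6.45 and 3.92) and Ppp2r2c, a regulatory subunit of protein phosphatase 2A (7.58 and 5.60). Ttyh1, a membrane protein gene of neural cells, read 8.60 and 6.41, and its other probe sets were 0.80 and 1.90 higher.

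**Figure D2:**
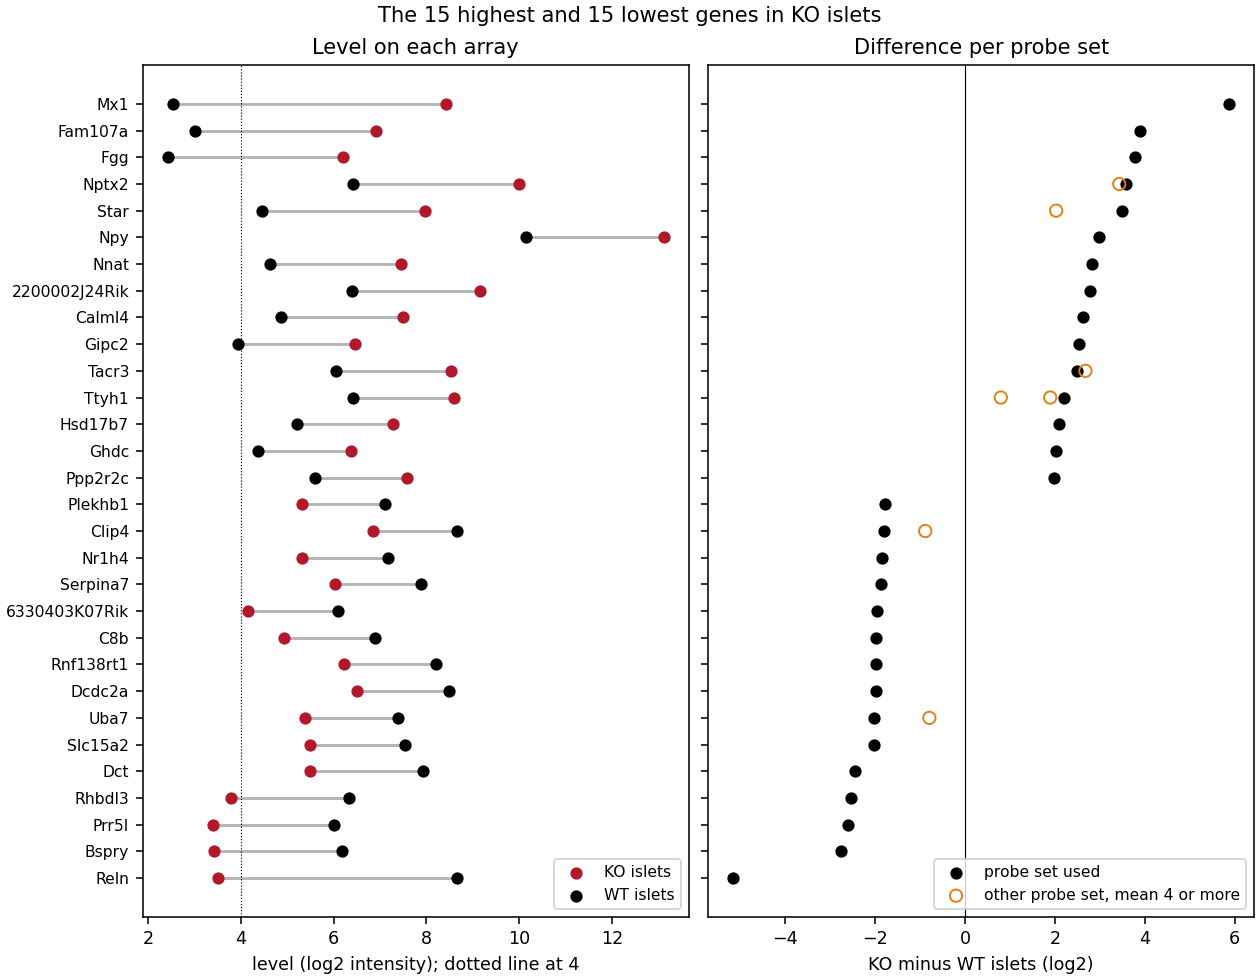
Left, log2 level on the KO (red) and WT (black) array for the 15 genes highest and 15 lowest in KO islets among those reaching 6; the dotted line marks 4. Right, KO minus WT (log2) for the probe set used (black) and for other probe sets of the gene with a mean of 4 or more (open circles): Nptx2, Star, Tacr3, Ttyh1, Clip4 and Uba7 have such a set, each on the same side of 0, and the other 24 genes have none.

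Other probe sets of a gene are the only check within these arrays, since they read the same RNA through different sequences. Of the 144 higher genes 31 had another probe set with a mean of at least 4. It was above 0 for 24 of them, at least 0.58 for 14 and at least 1 for 10, with a median of 0.34 against 1.32 on the set used. Of the 136 lower genes 19 had one: 18 of the second sets were below 0, 10 at -0.58 or lower and 5 at -1 or lower, with a median of -0.67. Over all 4602 genes with a second set, 10.2% of second sets were at least 0.58 higher and 5.52% as much lower. Every set with a mean of at least 4 was past 1 for 7 higher genes, Nptx2, Tacr3, Star, Ceacam10, Pole4, Cdkn1a and Nrcam. The same held for 4 lower genes, Itpr2, Tpm2, Tspan33 and Socs3. That mean is over the same 2 arrays, so a set can enter through the array where it is high. Nptx2 has such a set at 5.80 in KO and 2.37 in WT, and Itpr2 at 2.96 and 5.29. Sets below the mean were left out, such as a set of Star at 2.42 and 2.30. The filter thus favours agreement, and the check is a weak one. Tpm2, a tropomyosin gene, differed by -1.39, and its second set read 3.18 in KO and 5.26 in WT, or -1.26 with KO set to 4. Nrcam, a neuronal adhesion gene, differed by 1.13, 1.28 and 1.28. Other genes did not repeat. Ubn1 was 1.62 higher with -0.16 on its second set, and Map1b 1.79 with 0.17. With probe sets averaged within a gene, those at the floor included, Reln was at -2.58, Star at 1.88, Ttyh1 at 1.22, Uba7 at -1.10, Dcdc2a at -1.23, Hnf4a at -0.56, Slc6a9 at 0.85, Rab17 at -1.14 and Cdkn1a at 2.64.

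**Figure D3:**
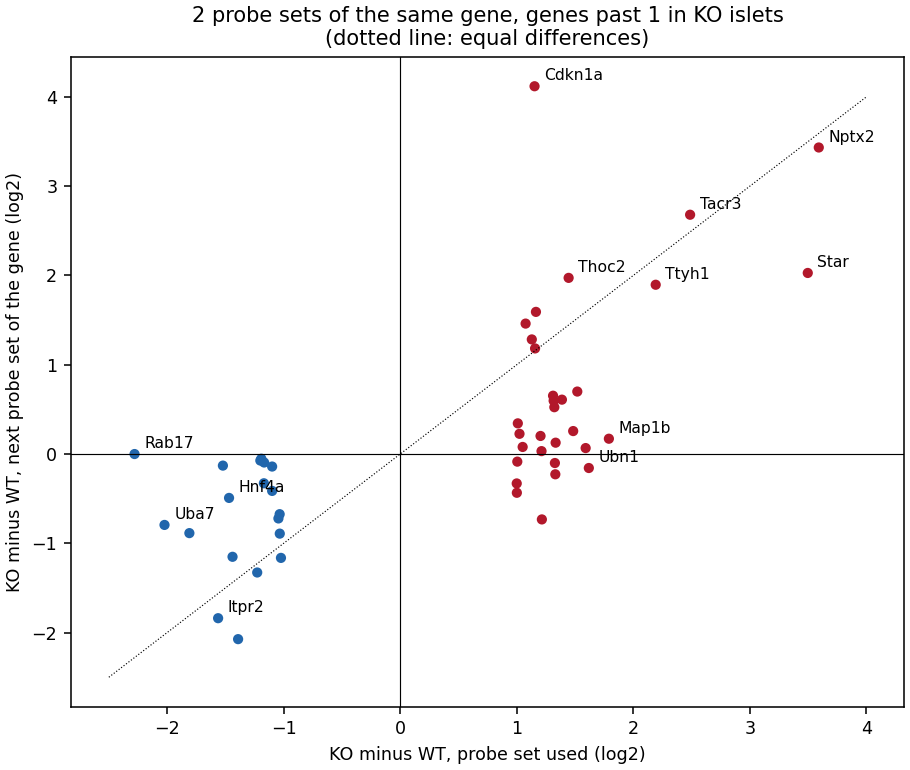
KO minus WT (log2) on the next probe set of a gene against that on the probe set used, for the 31 higher (red) and 19 lower (blue) genes with a second set at a mean of 4 or more; the dotted line marks equal differences. Many points lie close to 0 on the vertical axis, such as Rab17 and Ubn1, and Cdkn1a lies far above the line.

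The knockout was made in beta cells, with a Cre driver that is not given, and its restriction to them was not measured. An islet sample holds other cells, and in such bulk samples fewer cells of a type and less RNA per cell cannot be told apart. On the probe sets used, no marker compared for alpha cells (5), delta and PP cells (7) or acinar cells (4) was past 0.58. The same held for ductal cells (6) and stellate cells (5). Among all genes 8.83% were past it, so these counts do not set such short lists apart. Another probe set of Ptprz1, of the delta and PP list, was 0.60 higher. The hormone genes that dominate the alpha, delta and PP lists are near the top of the scale; among less bright members Irx2 differed by 0.23, Hhex by 0.04 and Casr by 0.12. For acinar cells, whose digestive enzymes are a common carry-over in islet isolation, 17 of 21 genes with a probe set were below 4. Of these, Prss2 read 2.88 in KO and 3.78 in WT, Reg1 2.22 and 3.71, and Reg3b 2.17 and 3.90. Cela1 read 8.04 and 8.02. The ductal gene Krt19, below 4 in its mean, read 4.45 in KO and 2.68 in WT. All 5 stellate and fibroblast genes were lower in KO, from -0.11 to -0.48, with summed levels of 13.23 and 13.63 (log2 of the sum). Of 16 endothelial genes Pecam1 (5.19 in KO and 6.30 in WT) was the only one past 0.58 on the set used, with sums of 12.1 and 12.3. Other sets ran from -0.89 to -0.19 for Egfl7 and from -0.59 to 0.22 for Flt1. Of 15 immune-cell genes the only one past 0.58 was Itgax, at 3.21 and 5.07, with sums of 13.45 and 13.36. Against the same 8.83% of all genes, neither count sets its list apart. Dct, a melanin synthesis gene kept here with the Schwann and melanocyte lineage, read 5.49 and 7.93, while Tyr, Tyrp1 and Pmel were at the floor on both arrays. The part of the acinar, ductal, stellate, endothelial or immune genes in the other differences was not tested.

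**Figure D4:**
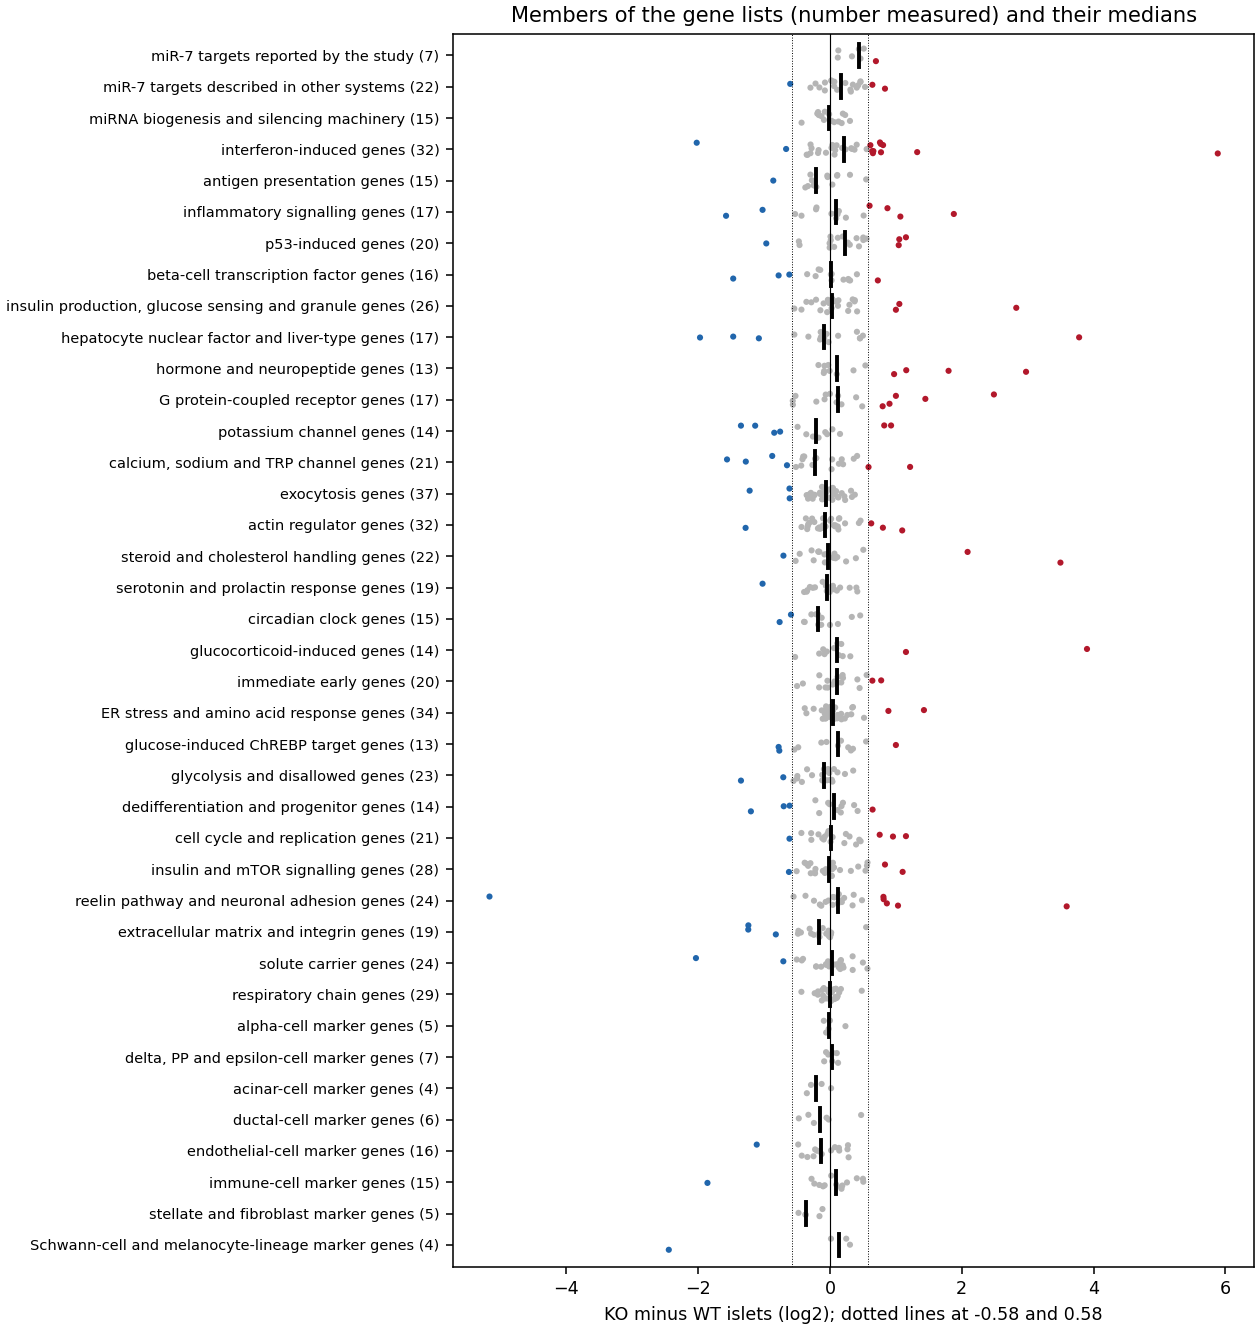
KO minus WT (log2) of every measured member of each gene list with at least 3 (number in brackets); black bars mark list medians, red and blue points members at least 0.58 higher or lower. Medians lie between -0.37 for stellate and fibroblast markers and 0.44 for the miR-7 targets attributed to the study, and the widest differences are those of Mx1 and Reln.

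Genes reported as direct targets of miR-7 were examined as lists. A first list holds targets attributed to the study's own publication, which was not among the sources used here, so the list was not checked against it. All 7 of its measured members were above 0, with a median of 0.44 against -0.03 for all genes. The list may have been chosen with these arrays in view, so its direction is not independent evidence. Zdhhc9, a palmitoyltransferase gene, read 6.87 in KO and 6.17 in WT and was the only one past 0.58. The actin regulator gene Phactr1 differed by 0.44 on the set used and 1.49 on its other set, and Pfn2, a profilin gene, by 0.46, with 0.37 to 0.48 on its others. Of 22 targets described in other systems 2 were at least 0.58 higher and 1 lower, against 4.11% and 4.72% of all genes. The median was 0.17. Igf1r, the insulin-like growth factor receptor gene, read 12.92 and 12.09, and its other probe sets ran from 0.67 to 1.82 higher. Klf4 was 0.64 higher, with 1.16 on its other set, and Bcl2 was at -0.60. The 15 genes of microRNA processing and silencing were all within 0.58, with a median of -0.01. Among all genes 8.83% were past 0.58, so this count does not set the list apart.

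The MIN6 arrays measure the opposite change, more miR-7, in separate samples. A gene was counted there when each of the 3 miR-7 arrays was at least 0.58 from the AdGFP array on the same probe set. Of the 144 genes higher in KO islets 32 (22.2%) were lower on every miR-7 array, against 6.77% of all genes compared, and 3 (2.08%) were higher, against 5.72%. Of the 136 genes lower in KO islets 24 (17.6%) were higher on every miR-7 array, against 5.72%, and 7 (5.15%) were lower, against 6.77%. With only genes that reached 4 on a MIN6 array, the opposite share was 30.4% of 102 KO-higher genes against 7.2% of all, and 30.7% of 75 KO-lower genes against 6.07%. All MIN6 differences rest on the same AdGFP array, so an error in that array would enter each of them.

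Among the 32 genes higher in KO islets and lower with miR-7, Tacr3 was furthest below AdGFP in MIN6. It was 2.49 higher in KO islets and differed by -3.52, -2.60 and -3.28 on the AdmiR7a arrays and the AdmiR7b array. Ttyh1 gave -1.92, -1.52 and -1.93, Hsd17b7 -1.67, -1.34 and -1.85, and Slc6a9, a glycine transporter gene 1.62 higher in KO, -1.33, -1.75 and -1.75. Cth gave -2.43, -2.39 and -2.19. The other leading genes of this kind were Nnat, 2200002J24Rik, the amino acid transporter gene Slc7a3, Pdyn, Rprml and the quinone reductase gene Nqo1. Nptx2, at -1.18, -0.48 and -0.50, did not meet the rule on every array. Npy differed by -0.14, -0.25 and -0.08 in MIN6 and read 15.53 on the AdGFP array, near the top of the scale. The part of this high level in the small differences was not tested. Mx1, Fam107a and Fgg were below 4 on every MIN6 array.

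In the other direction, Rab17 read 3.48 in KO and 5.76 in WT islets, a difference of -1.76 with KO set to 4, and gave 2.52, 2.23 and 2.46 with miR-7. Its second islet probe set differed by 0.00, at 4.10 on both arrays. Kcnk16 was -1.35 in KO islets and 1.43, 1.36 and 1.51 with miR-7. Hnf4a gave 0.82, 0.58 and 0.65. Defb1, an antimicrobial defensin gene, read 10.30 in KO and 11.34 in WT islets and gave 4.68, 4.32 and 4.37 in MIN6. Pamr1, Chd5, Fkbp7, Adgrv1, Dpyd, Tmem255a, Rnf138rt1 and 6330403K07Rik completed the leading genes. In MIN6, 6330403K07Rik was below 4 on every array, at 2.17 with AdGFP and 2.89 to 3.16 with miR-7. Dpyd read 2.84 with AdGFP and 3.80 to 4.40 with miR-7, and 3.80 in KO islets. Adgrv1 read 3.70 with AdGFP. Reln, the lowest gene in KO islets, differed by 0.36, -0.08 and -0.06 in MIN6. The 10 genes that went the same way in both systems included Cdkn1a, Hpgds and Ppp1r3b, higher in both, and the stress hormone receptor gene Crhr1, lower in both.

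**Figure D5:**
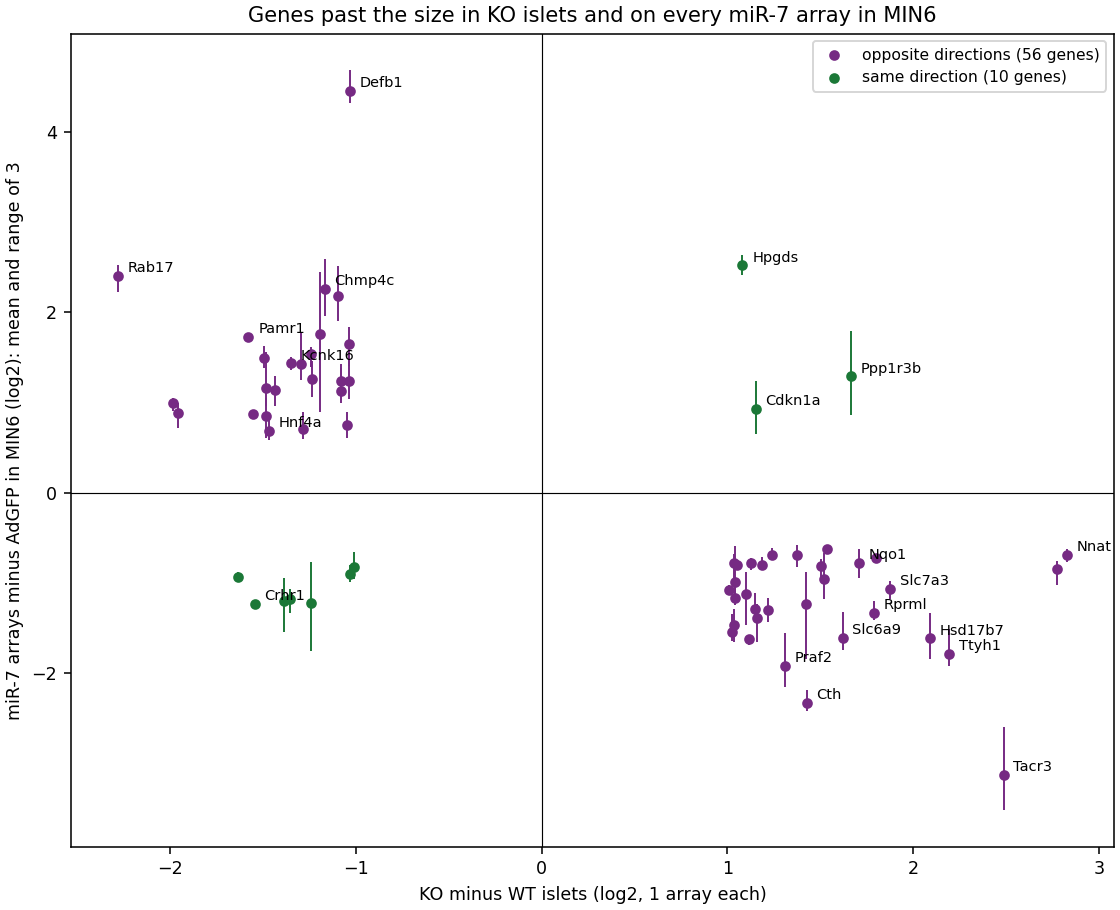
Mean (points) and range (lines) of the 3 miR-7 arrays minus AdGFP in MIN6 (log2) against KO minus WT in islets (log2), for genes past 1 in islets and past 0.58 on every miR-7 array. The 56 genes with opposite directions (purple) fill the upper left and lower right, and the 10 with the same direction (green) include Hpgds and Cdkn1a.

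Read from the MIN6 side, 197 genes were at least 1 lower on every miR-7 array. Their median in KO islets was 0.30, and 157 of them (79.7%) were above 0, against 44.7% of all genes. Of these 197 genes, 43 (21.8%) were at least 0.58 higher in KO islets and 4 (2.03%) lower, against 4.11% and 4.72% of all genes. For the 186 genes at least 1 higher on every miR-7 array the median was -0.24, and 43 (23.1%) were above 0. Of these 186 genes, 39 (21.0%) were at least 0.58 lower in KO islets and 5 (2.69%) higher, against 4.72% and 4.11%.

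Genes around the deleted locus were examined because a deletion can touch its neighbours. In RefSeq gene order the nearest compared genes on either side of Mir7-2 differed by 0.37 (Det1), -0.43 (Mrps11), 0.16 (Mrpl46), -0.17 (Klhl25), 0.12 (Aen), 0.10 (Isg20) and -0.33 (Mfge8). Ntrk3, Acan and Hapln3 were below 4. None of the 7 was past 0.58, against 8.83% of all genes, so this count does not set them apart. On chromosome 7 as a whole 2.73% of genes were past 1 either way, against 2.65% of all genes, with chromosomes ranging from 1.37% (chromosome 9) to 3.90% (chromosome 3).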

How the data were processed

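RNA was extracted with Trizol and labelled with biotin by the standard Affymetrix protocol, per the labels' protocols. The authors deposited log2 intensities per probe set, computed with GCRMA and the affy package per the submitters' processing notes, which give no versions. GCRMA corrects the background from probe sequence, summarises probes and quantile-normalizes arrays, so a shift shared by most genes would be removed. Scanner files were not used. Of 45101 probe sets 34958 carried 1 gene symbol, 932 several and 9211 none; only the first were named. Among 2648 unnamed probe sets at a mean of 4 or more, 141 were at least 1 higher and 54 lower. Together these were 7.36%, against 2.65% of the genes compared. Their differences ran from -5.12 to 3.98, so some of the widest differences lie outside the named genes. Genes, lists, sizes (1 and 0.58) and comparisons were chosen with earlier results of these data known. Named genes were the 15 highest and 15 lowest reaching 6 on an array. Genes with 2 or more probe sets at a mean of at least 4, all past 1, were also named. So were up to 4 members per list with the widest differences, and all members of lists of 8 or fewer. The rest were 10 per direction opposite in MIN6 and neighbours of Mir7-2. Ins2, Iapp, Gcg, Sst, Ppy, Kcnj11, Abcc8, Pdx1, Neurod1, Cnr1, Galr1, Opn3, Igtp and Xist were added after their values were seen. Further members and probe set mismatches were added in the same way. Of 41 lists, 39 had at least 3 measured members. Alternatives were the mean of a gene's probe sets, no _x_at or _s_at sets, other level filters, 3 rescalings and leaving out a miR-7 array. Python 3.11.15, pandas 2.3.3 and numpy 2.4.6 were used, and the counting was tested on simulated data. Precision is limited by the 1 array per genotype.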

Additional observations from a re-analysis of the deposited data

How the results depend on the processing

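With 1 array per genotype no spread could be estimated, and low signals limit the folds. At a mean of at least 6 only 20 of the 30 highest and lowest genes were still compared, and without _x_at and _s_at sets 29. Those compared stayed past 1 under the filters and rescalings. The 15 highest and 15 lowest genes are the extremes of the same values, so this says nothing about stability. With the mean of a gene's probe sets 22 of the 30 were compared and were past 1 the same way, but Reln moved to -2.58, Star to 1.88, Ttyh1 to 1.22, Uba7 to -1.10 and Dcdc2a to -1.23. Counts moved too. With the mean of probe sets 74 genes were at least 1 lower and 11 were lower in KO and higher in MIN6, in place of 136 and 24. At a mean of at least 6, 81 genes were at least 1 higher, 53 lower, 285 at least 0.58 higher, 262 lower and 10 lower in KO and higher in MIN6. With no filter 212 were at least 1 lower, and 13 lists had a median above 0 in place of 20. Quantile normalization of the 2 islet arrays gave 130 higher and 151 lower genes, and a lowess curve 161 and 117. Leaving out each miR-7 array gave 32 to 33 genes opposite in MIN6 among the higher and 26 to 27 among the lower. The cause of these moves was not tested, except that fewer or more genes were compared. No paired analysis was possible because each genotype has 1 array and the labels number no replicates of the islets.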
